A study of Mus musculus with 11 samples.

Results

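Transcripts of 8 epithelial kallikreins (Klk5, Klk6, Klk7, Klk8, Klk10, Klk11, Klk13 and Klk14) and of Spink5, which encodes LEKTI, an inhibitor of kallikreins, were examined in epithelium from the gingiva of langerin-DTR mice. The genes were chosen by name for their part in desquamation, the shedding of the outermost keratinocytes, with earlier results of these data known. All 9 were measured, among 19170 genes with values of 55414 listed, and the mean of each was over 10 normalized counts. In these male mice the langerin gene drives a receptor for diphtheria toxin (DT), and DT therefore kills langerin-expressing cells, chiefly the Langerhans cells (LCs) of the epithelium. Mice were given DT (n = 6) or PBS (n = 5) 17, 24 and 31 days after birth. Tissue was taken from adults aged 8 weeks, when the LCs that DT removes had grown back. Both groups carried the transgene, so a mouse without it was not part of the comparison. The libraries are bulk samples, in which fewer cells of a type and less RNA per cell cannot be told apart.

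Kallikreins are secreted serine proteases that are made as inactive precursors in the upper layers of stratified epithelia. In skin, Klk5 and Klk14 cut after basic residues and Klk7 cuts after aromatic ones. Klk5 can activate the precursors of other kallikreins, and together these enzymes cleave the corneodesmosomes that hold cornified cells to one another. LEKTI, a protein of many inhibitory domains, is secreted with them and holds them in check, and its loss causes premature shedding and a leaky barrier.

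The depth was 17509328 to 24325513 reads per mouse and did not separate DT from PBS (exact permutation test, two-sided, 462 splits, p = 0.496). Keratinocyte transcripts dominated, with mean values up to 892698 normalized counts (Krt13). Transcripts of other cell types were present. The sum of 6 fibroblast genes lay between 1252 and 1450 normalized counts after PBS and between 1109 and 1594 after DT. All 5 red blood cell genes reached a mean of 10, whereas 0 of 6 salivary gland genes with values did. Cd207, which encodes langerin, lay between 10.0 and 43.0 normalized counts after PBS and between 15.8 and 21.6 after DT (log2 fold change -0.19, limma adjusted p = 0.853). All 7 LC marker genes, Cd207 among them, had a negative log2 fold change, with a median of -0.35 beside -0.01 over all genes. By limma 3 of the 7 had an unadjusted p under 0.05, as had 11.5% of all genes, and 0 had an adjusted p under 0.1. Libraries PBS 3 and PBS 5 stood apart from the others. On the first principal component of the 500 most variable genes, which held 36.0% of their variance, their scores were 17.2 and 20.9. The remaining 3 PBS-treated mice lay between -13.0 and -11.9 and the DT-treated mice between -9.09 and 10.5. Where a call changed without these mice, the values without them are given too.

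All 8 kallikreins lie in a row on the plus strand of chromosome 7, over 160.8 kb. In GRCm38 the stretch runs from Klk14 (43690418 to 43695536) through Klk13, Klk11, Klk10, Klk8, Klk7 and Klk6 to Klk5 (43841971 to 43851181). A transcript of the opposite strand, 2310002F09Rik (43695209 to 43797958), shares 382 of the 1540 exonic bases of Klk8 and 287 of the 1271 exonic bases of Klk14. The library kit named in the labels keeps strand, but how strand was used in counting is not given in the sources used here, so the assignment of reads in these stretches is uncertain. The level of 2310002F09Rik, 531 ± 27.7 normalized counts in 5 PBS-treated mice and 597 ± 59.9 in 6 DT-treated mice (mean ± SD), was low beside those of Klk8 and Klk14. Positions are those of GENCODE on GRCm38, the build of the study's methods, whereas the submitters' processing notes name GRCm39, and the deposited values carry no positions.

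Upstream sequence is shown for 3 genes whose levels went together across mice (Klk10, Klk13 and Klk14), for Klk11, which varied against them, and for Klk8, which had the smallest p of the 8. Each sequence is the 180 bases before a RefSeq transcript start in GRCm38.p6, on the plus strand, 5′ to 3′, with the letters CCACCC or their reverse complement GGGTGG in capitals. They lie at chr7:43780874-43781053, chr7:43712387-43712566, chr7:43690238-43690417, chr7:43774437-43774616 and chr7:43797397-43797576, in this order.
Klk10: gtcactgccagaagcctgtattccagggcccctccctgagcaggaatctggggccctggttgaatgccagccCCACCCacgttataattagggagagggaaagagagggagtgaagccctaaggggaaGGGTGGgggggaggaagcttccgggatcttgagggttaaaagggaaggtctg
Klk13: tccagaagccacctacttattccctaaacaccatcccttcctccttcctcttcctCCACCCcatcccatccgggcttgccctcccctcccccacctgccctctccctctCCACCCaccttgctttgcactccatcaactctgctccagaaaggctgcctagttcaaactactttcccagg
Klk14: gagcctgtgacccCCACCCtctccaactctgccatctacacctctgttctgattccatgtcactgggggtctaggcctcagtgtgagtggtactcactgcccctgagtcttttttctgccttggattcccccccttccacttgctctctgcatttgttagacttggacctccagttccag
Klk11: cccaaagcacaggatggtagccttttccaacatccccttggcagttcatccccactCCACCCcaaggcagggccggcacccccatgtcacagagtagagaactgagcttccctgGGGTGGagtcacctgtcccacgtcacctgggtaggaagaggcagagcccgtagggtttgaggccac
Klk8: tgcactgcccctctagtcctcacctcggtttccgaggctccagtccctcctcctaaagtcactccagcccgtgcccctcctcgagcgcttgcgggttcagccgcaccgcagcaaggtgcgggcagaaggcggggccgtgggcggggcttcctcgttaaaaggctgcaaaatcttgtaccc
The starts used for Klk10 and Klk11 lie just inside the GENCODE genes. Over 250 bases before each start, CCACCC on either strand was present in 6 of the 10 kallikrein windows and in 28.1% of 32851 mouse promoter windows. By gene it was upstream of 6 of the 8 kallikreins (all but Klk6 and Klk8). TATAAA was in 0 of the 10 kallikrein windows and in 12.4% of all windows, and TGANTCA in 0 and in 6.75%. Altogether 16 motifs were searched on both strands, some of them parts of one another (CACCC within CCACCC), and the one shown was chosen after the matches were seen. A match is a stretch of letters and not evidence of a bound factor.

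**Figure D1:**
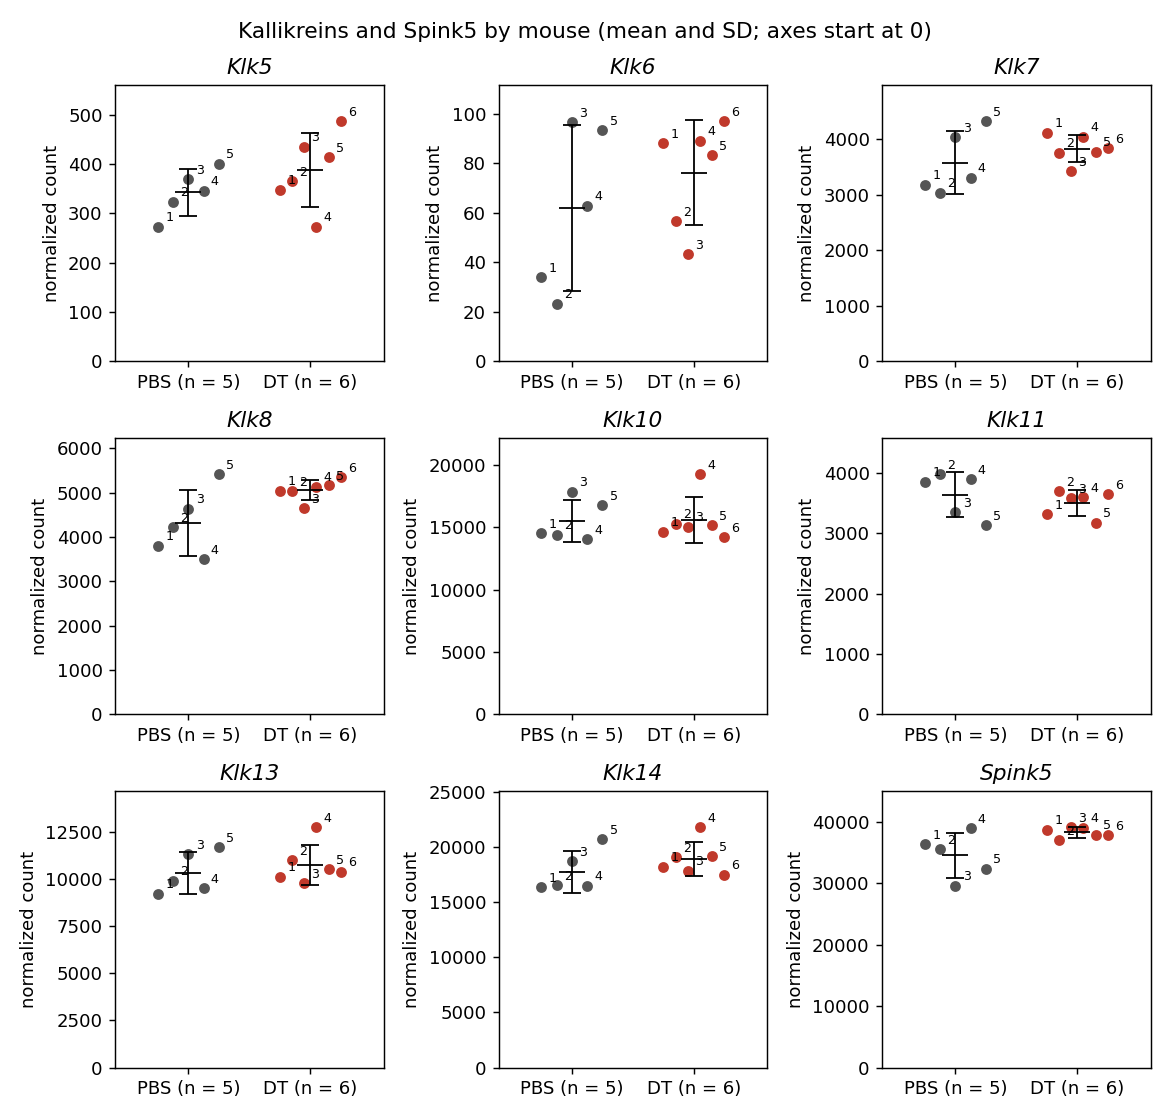
Normalized count of each gene (vertical axes, each from 0) in every mouse, PBS in grey and DT in red, with the mouse number beside each point and the mean and SD as bars. The groups overlap for all 9 genes, and the SD of Spink5 is 3644 after PBS and 824 after DT.

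The order of the genes by level per kb was the same in 8 of 11 mice. The other 3 were PBS-treated, with Klk11 above Klk8 in PBS 1 and PBS 4 and Klk7 above Klk11 in PBS 5. Scaled to exonic length, Klk14 was the most abundant, with a median of 14303 normalized counts per kb over the 11 mice and a range from 12869 to 17120. Klk10 followed at 10972 (10242 to 14039.6), below Klk14 in 11 of 11 mice although the ranges overlapped. Spink5 came next at 7905 (6190 to 8181), its range separate from those of its neighbours in the order.

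Klk13 had a median of 4521 normalized counts per kb, and Klk8 (3269.7), Klk11 (2447) and Klk7 (1993) came next. The ranges of Klk8 and Klk11 overlapped, with Klk8 higher in 9 of 11 mice, as did those of Klk11 and Klk7, with Klk11 higher in 10. Klk5, the enzyme that starts activation of the others in skin, was far lower at 274 (204 to 365), and Klk6 was lowest at 55.1 (15.4 to 64.2). The kit in the labels makes libraries of whole transcripts, but part of the study's methods describes trimming for libraries that read transcript ends, for which a scaling by length would be out of place. Without it Spink5 led with a median of 37826 normalized counts, against 18179 for Klk14 and 15064.5 for Klk10, and Klk7 (3777) lay above Klk11 (3589.9).

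Between DT and PBS, 0 of the 9 genes passed the threshold of a limma adjusted p under 0.1. Over all 19170 genes the share that passed was 0.558% (107 genes), so 0 of 9 is near that background. At an unadjusted p under 0.05 there were 2 (Klk8 and Spink5), where 11.5% of all genes were under it. The log2 fold change was positive for 8 of the 9 genes with a median of 0.11, beside a median of -0.01 over all genes tested, and the values of DT and PBS overlapped for each of the 9, as they did for all but 1.65% of the genes tested.

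Klk5 and Klk14 are kallikreins that cut after basic residues in the cornified layer. Klk5 had 273, 324, 369, 346 and 401 normalized counts in PBS 1 to 5, and a lowest value of 273, a median of 389.9 and a highest value of 487 after DT. DT 4 was as low as PBS 1, and DT 3, DT 5 and DT 6 were above every PBS-treated mouse. The log2 fold change was 0.16 (standard error 0.13, 95% interval -0.11 to 0.44, limma adjusted p = 0.668).

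For Klk14 the PBS-treated mice had 16356, 16524, 18700.0, 16466 and 20664 normalized counts, and the DT-treated mice 17462 at the lowest, 18618 at the median and 21759 at the highest. PBS 1, PBS 2 and PBS 4 lay below every DT-treated mouse, whereas PBS 3 and PBS 5 lay within their range. Its log2 fold change was 0.09 (standard error 0.07, 95% interval -0.06 to 0.25, limma adjusted p = 0.673).

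Klk7, the chymotrypsin-like enzyme of the group, had 3185, 3038, 4040.3, 3308 and 4333 normalized counts in PBS 1 to 5, and after DT 3431, 3811 and 4121 as lowest, median and highest. The PBS-treated mice fell on both sides of the DT-treated mice, with PBS 5 above all of them and PBS 1, PBS 2 and PBS 4 below all of them. Means were 3581 ± 571 (PBS, SD, n = 5) and 3831 ± 246 (DT, SD, n = 6), and the log2 fold change was 0.11 (standard error 0.08, 95% interval -0.07 to 0.29, limma adjusted p = 0.664).

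Klk8, also known as neuropsin and cutting after basic residues, had the smallest p of the 9. Its values were 3801, 4220.4, 4636, 3495 and 5415 normalized counts in PBS 1 to 5, and 4651, 5085 and 5349 as lowest, median and highest after DT. All DT-treated mice were above PBS 1 to 4 and below PBS 5. The log2 fold change of 0.25 (standard error 0.09, 95% interval 0.06 to 0.43, limma unadjusted p = 0.0124) did not pass after adjustment (limma adjusted p = 0.287). Without PBS 5 it was 0.33 (limma adjusted p = 0.0449) and passed, in a fit in which 1.35% of all genes passed.

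Klk6, the scarcest of the 9 genes, varied most between mice, by 4.16 times from lowest to highest. It had 33.9, 23.3, 96.6, 62.8 and 93.4 normalized counts in PBS 1 to 5, and 43.3, 85.8 and 97.1 as lowest, median and highest after DT. PBS 3 and PBS 5 were as high as the highest DT-treated mice, and PBS 1 and PBS 2 were below all DT-treated mice. With such spread the 95% interval of the log2 fold change, 0.44 (standard error 0.33, limma adjusted p = 0.651), ran from -0.26 to 1.14, so that a 2-fold rise could not be told from no change.

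Klk10 and Klk13 differed little between the groups. Klk10 measured 15529 ± 1689 normalized counts (SD, n = 5) in PBS-treated and 15614 ± 1839 (SD, n = 6) in DT-treated mice, with a log2 fold change of 0.01 (95% interval -0.17 to 0.18, limma adjusted p = 0.985). DT 4, at 19276, was above the other DT-treated mice, which lay between 14206 and 15316. Klk13 measured 10324 ± 1102 (SD, n = 5) and 10746 ± 1050.2 (SD, n = 6) normalized counts in the same order, and its log2 fold change was 0.06 (95% interval -0.10 to 0.22, limma adjusted p = 0.823).

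Klk11 was the exception in direction. Its values were 3846, 3974, 3342, 3894 and 3129 normalized counts in PBS 1 to 5, and 3168, 3583 and 3689 as lowest, median and highest after DT. PBS 1, PBS 2 and PBS 4 were above every DT-treated mouse, the reverse of their place for Klk7, Klk8 and Klk14. The log2 fold change was -0.05 (standard error 0.07, 95% interval -0.20 to 0.09, limma adjusted p = 0.815).

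Spink5 is on chromosome 18 of GRCm38 (43963235 to 44022501). Its values were 36416, 35623, 29618, 38980.3 and 32415 normalized counts for PBS 1 to 5, and 37055, 38380.5 and 39146 as lowest, median and highest after DT. The lowest of the 11 mice were PBS 3 and PBS 5, and PBS 4 was as high as the DT-treated mice. The SD was 3644 after PBS and 824 after DT, a ratio of 4.42. The log2 fold change of 0.15 (standard error 0.07, 95% interval 0.0050 to 0.30, limma unadjusted p = 0.0436) did not pass after adjustment (limma adjusted p = 0.412), and it was 0.05 without PBS 3 and PBS 5.

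**Figure D2:**
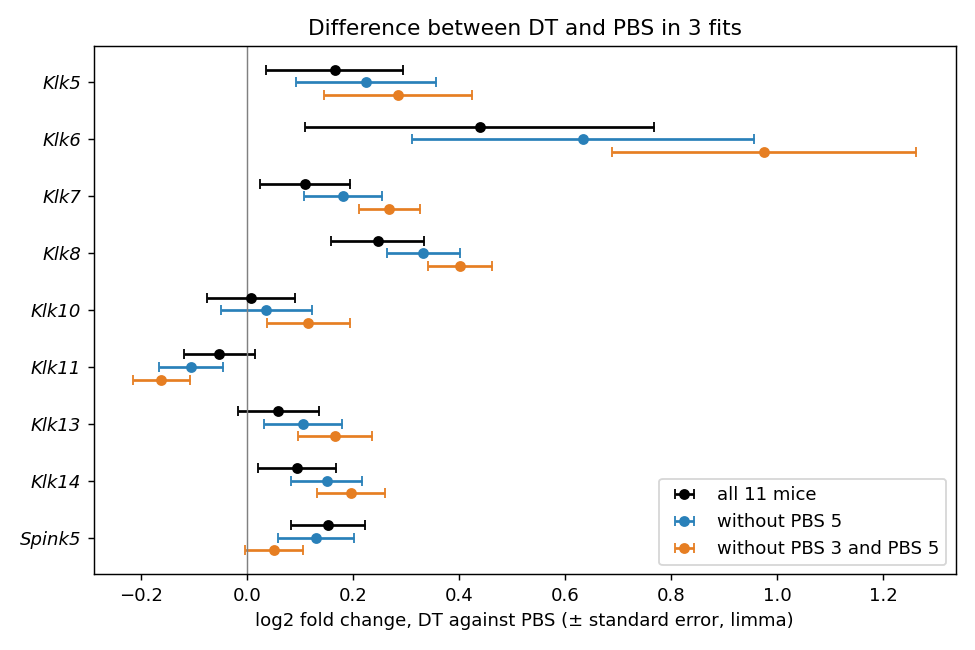
Log2 fold change of DT against PBS (horizontal axis) with its standard error by limma, for all 11 mice (black), without PBS 5 (blue) and without PBS 3 and PBS 5 (orange). With fewer PBS-treated mice the values of the kallikreins lie farther from 0, as for Klk8 (0.25, 0.33 and 0.40), whereas that of Spink5 lies nearer to it (0.15, 0.13 and 0.05).

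PBS 3 and PBS 5 together set much of what the comparison showed. With both left out, Klk6 (log2 fold change 0.98, limma adjusted p = 0.0603), Klk7 (0.27, 0.0172), Klk8 (0.40, 0.0050) and Klk14 (0.20, 0.0866) were higher after DT and passed the threshold, and Klk11 (-0.16, 0.0936) was lower and passed. These are 5 of 9 genes, 4 higher and 1 lower, where 10.3% of all genes passed in the same fit, 4.81% higher and 5.45% lower. The mice were left out because they stood apart in earlier work on these data, and the remaining PBS group had 3 mice. They had the highest values of the PBS group for Klk6, Klk7, Klk8 and Klk14 and the lowest for Klk11. Leaving them out therefore widens these differences, and the adjusted p-values take no account of that choice. Without PBS 3 alone, 0 of the 9 passed and 0.657% of all genes did.

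**Figure D3:**
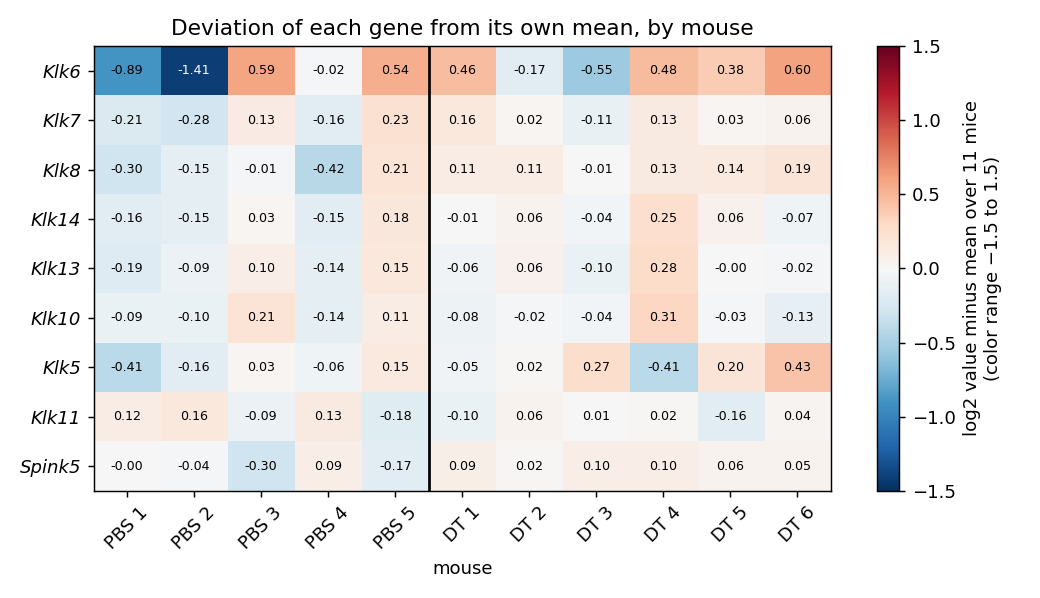
Log2 value of each gene minus its mean over the 11 mice (color, with the value printed), for each mouse along the horizontal axis. In PBS 1, PBS 2 and PBS 4 the values of Klk7, Klk8, Klk10, Klk13 and Klk14 are below 0 and that of Klk11 above 0, while PBS 5 has the opposite signs.

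Several kallikreins varied together over the 11 mice. Among 36 pairs of the 9 genes, 9 had a Pearson correlation with an adjusted permutation p under 0.05 (100000 permutations, Benjamini-Hochberg over the 36 pairs) and 5 had both Pearson and Spearman values under it. Those 9 pairs, 25% of the 36, had an absolute r of at least 0.74, as did 3.47% of all pairs of the 13477 genes whose mean was at least 10 normalized counts. This cutoff was the smallest absolute r among the 9 pairs themselves. The other genes were not matched to the 9 genes in level, and the shares were not compared by a test. In each mouse the genes of a pair share a library and a size factor.

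Klk13 and Klk14 were most alike (r = 0.93, permutation p = 2e-05, adjusted 0.00072; rho = 0.92, permutation p = 0.0002, adjusted 0.00720), and r was 0.87 without DT 4 and PBS 1, the mice farthest from the median of Klk13. Klk10 went with Klk13 (r = 0.89, permutation p = 0.0003, adjusted 0.0036; rho = 0.83, permutation p = 0.0028, adjusted 0.0298) and with Klk14 (r = 0.83, permutation p = 0.0013, adjusted 0.0117; rho = 0.86, permutation p = 0.0010, adjusted 0.0185). Without DT 4 and PBS 3 these were 0.80 and 0.89. Without PBS 3 and PBS 5 the 3 values were 0.94, 0.89 and 0.89. Within the 6 DT-treated mice alone they were 0.93, 0.91 and 0.95 and leaned on DT 4, without which they were 0.65, 0.28 and 0.80 over 5 mice.

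Klk6 went with Klk7 (r = 0.90, permutation p = 0.00025, adjusted 0.0036; rho = 0.82, permutation p = 0.0033, adjusted 0.0298), with r = 0.77 without PBS 1 and PBS 2 and 0.83 within the DT-treated mice. Klk11 ran against Klk7 (r = -0.82, permutation p = 0.0028, adjusted 0.0175; rho = -0.81, permutation p = 0.0042, adjusted 0.0302), with r = -0.70 without PBS 1 and PBS 2. Within the DT-treated mice that value was -0.23, so the opposition of Klk11 and Klk7 rested on the PBS-treated mice. Klk11 had a negative r with each of the other 7 kallikreins, from -0.82 to -0.40, and only that with Klk7 passed. Within the DT-treated mice its r was 0.19 with Klk10, 0.27 with Klk13 and 0.02 with Klk14. Of the pairs that passed, those not yet named did so by r and not by rho. They were Klk7 with Klk8, Klk13 and Klk14 (0.79, 0.76 and 0.81) and Klk8 with Klk14 (0.74). Within the DT-treated mice these values were, in the same order, 0.65, 0.50, 0.43 and 0.15.

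Klk5 had its highest r with Klk8 (0.47, adjusted permutation p = 0.262) and none past the threshold with another of the 9 genes. Spink5 had a negative r with 7 of the 8 kallikreins, from -0.42 (Klk10) to -0.05 (Klk5), and 0.34 with Klk11. None of these values for Spink5 passed (lowest adjusted permutation p = 0.297). All 8 turned in sign without PBS 3 and PBS 5, to between 0.22 (Klk8) and 0.69 (Klk6) for the 7 and to -0.47 for Klk11. With DT 4 left out instead, r was -0.88 for Klk10, -0.66 for Klk13 and -0.41 for Klk14, while Klk5 turned to 0.10. With group means removed, the 7 lay between -0.77 (Klk8) and -0.35 (Klk5), and Klk11 was at 0.64. These further values were not tested.

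**Figure D4:**
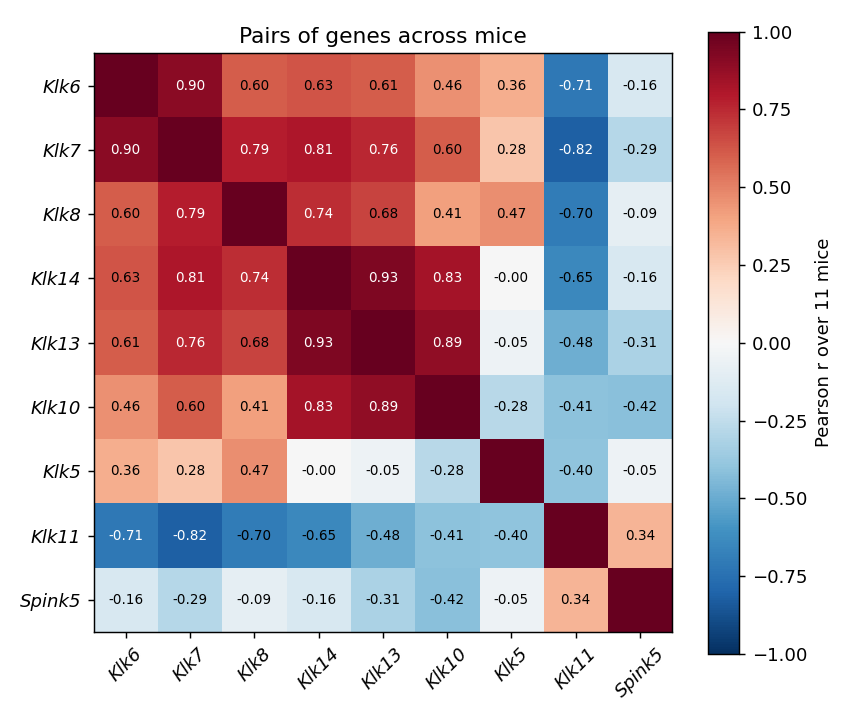
Pearson r over the 11 mice for each pair of genes (color and printed value), on log2 values. Klk6, Klk7, Klk8, Klk14, Klk13 and Klk10 are positive with one another, from 0.41 to 0.93, and the row of Klk11 is negative for all kallikreins.

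Kallikrein and Spink5 transcripts were set against each other in each mouse, as the summed level per kb of the 8 kallikreins over that of Spink5. This ratio is one of transcripts and does not measure the activity of the enzymes or their inhibition. It was 4.53, 4.72, 6.53, 4.21 and 6.18 in PBS 1 to 5, and 4.51, 4.77 and 5.50 as lowest, median and highest after DT. The highest ratios of the 11 mice were those of PBS 3 and PBS 5, with a high numerator and a low denominator at once, and the other PBS-treated mice lay below the median of the DT-treated mice. Without scaling to length it was 1.41, 1.47, 2.04, 1.31 and 1.93 in PBS 1 to 5 and 1.40 to 1.71 after DT, with PBS 3 and PBS 5 again highest. The kallikreins made up 0.275 ± 0.025% of all normalized counts in PBS-treated mice (SD, n = 5) and 0.284 ± 0.022% in DT-treated mice (SD, n = 6), which differed by less than either SD.

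Marker sums of LCs and of junctional epithelium were, as this ratio was, highest of the 11 mice in PBS 3 and PBS 5. That of leukocytes was highest in PBS 3, but DT 4 lay above PBS 5. Correlation of these sums with the ratio was not tested. The sum over 7 of 7 LC genes (Cd207, Cd74 and H2-Ab1 among them, and Epcam, which epithelial cells can also express) was 5082 and 4227 normalized counts in PBS 3 and PBS 5, between 2408 and 2881 in the other PBS-treated mice and between 1840.4 and 3186 after DT, and 0 of the 7 were at 0. The sum of 8 leukocyte genes was 204 and 183 in PBS 3 and PBS 5, between 111 and 156 in the other PBS-treated mice and between 79.6 and 190.0 after DT. The sum of 6 junctional epithelium genes was 2498 and 3066 in PBS 3 and PBS 5, between 1187 and 1805 in the other PBS-treated mice and between 769 and 2317 after DT. The sum of 10 genes of keratinized suprabasal cells was lowest of the 11 mice in PBS 5, at 899703 normalized counts. Whether these cells have a part in the levels of the kallikreins was not tested.

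**Figure D5:**
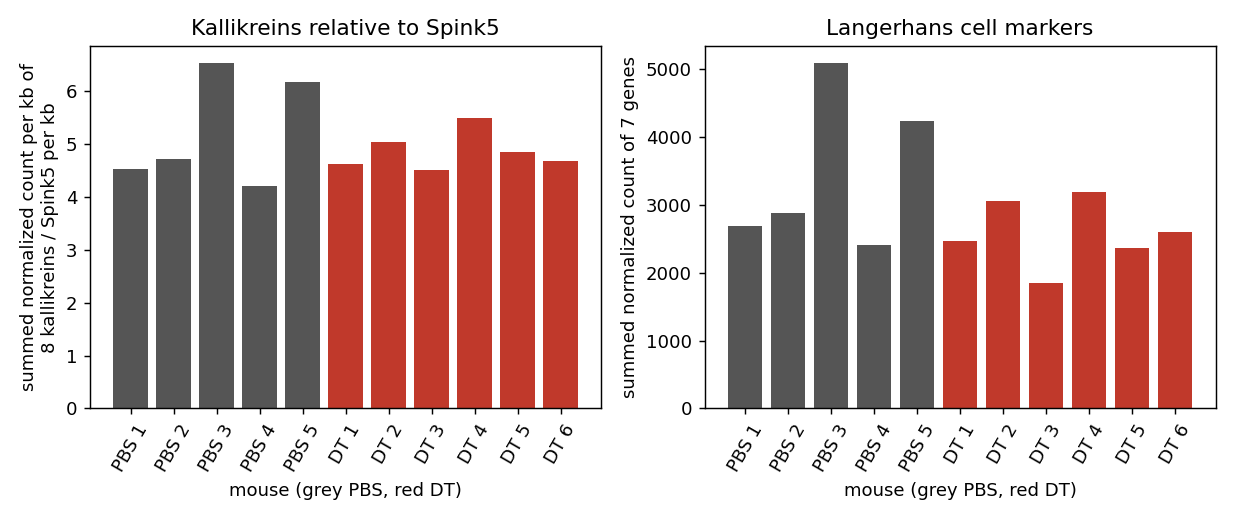
Left, summed normalized count per kb of the 8 kallikreins divided by that of Spink5; right, summed normalized count of 7 LC marker genes, each as a bar per mouse, PBS in grey and DT in red. PBS 3 and PBS 5 are highest in both panels, at 6.53 and 6.18 and at 5082 and 4227.

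For each of the 9 genes, the transcripts most like it across the 11 mice were read out by Pearson r on the log2 scale, among the 13468 others whose mean was at least 10 normalized counts. These values describe the highest of many and carry no test. Klk6 went with Lce1k, Lce1e and Lce1h (r = 0.97, 0.96 and 0.96), which encode late cornified envelope proteins, and all 13 Lce1 genes at this level had an r with Klk6 between 0.91 and 0.97. Lce1 genes are near-identical copies among which reads can be split.

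Klk7 went with Lsm2 (0.96) and with the epithelial cytokines Il1a (0.96) and Il36g (0.95). Klk8 went with Rps6 (0.99), Ssu72 (0.99) and Rplp0 (0.97), of which Rps6 and Rplp0 encode ribosomal proteins, and 125 genes had an r of at least 0.9 with it. Klk11, with 115 such genes, went with Dgka (0.98), BC025920 (0.97) and Paxbp1 (0.96).

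Klk13 went with Igfbp7 (0.99), Vat1 (0.95) and Wfdc5 (0.95), and Klk14 with Cnpy2 (0.96), Mppe1 (0.95) and Nlrp10 (0.95). Klk10 went with Atp9a (0.95), Capns1 (0.95) and Aldh3b2 (0.93). Klk5 had no gene at 0.9 or above, the nearest being Snx21 (0.89), Dmrt2 (0.89) and Adcy3 (0.87). Spink5 went with N4bp2l2 (0.96), Ddx23 (0.93) and Vps33b (0.93).

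The remaining kallikreins were mostly without values. Of 18 other members of the family on the list 4 had values, and 0 of these 4 passed the threshold by limma, with 1 at an unadjusted p under 0.05. That gene was Klk12, which lies between Klk13 and Klk11, at 2369 ± 219 normalized counts (SD, n = 5) in PBS-treated and 2702 ± 136 (SD, n = 6) in DT-treated mice (log2 fold change 0.19, limma adjusted p = 0.234). Klk9, between Klk10 and Klk8, had 803, 775, 1264, 749 and 1281 normalized counts in PBS 1 to 5, high in PBS 3 and PBS 5 as Klk10 was, and 804 to 1146 after DT (log2 fold change 0.12, limma adjusted p = 0.804). Without PBS 3 and PBS 5 both passed, Klk12 at 0.28 (limma adjusted p = 0.0111) and Klk9 at 0.40 (limma adjusted p = 0.0187). Klk1b1, one of a family of close copies, was at 1.35 normalized counts or below on average in either group.

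Among other protease inhibitors of epithelia, 17 of 22 had values, 0 passed by limma, and 4 had an unadjusted p under 0.05, all higher after DT, where 11.5% of all genes were under it. The median log2 fold change of the list was 0.10. Spink7, a Kazal-type inhibitor like Spink5, had 156, 173, 238, 214 and 164 normalized counts in PBS 1 to 5 and 195, 273 and 302 as lowest, median and highest after DT. PBS 3 and PBS 4 overlapped with the DT-treated mice and the others lay below them (log2 fold change 0.47, standard error 0.13, limma adjusted p = 0.174). It passed without PBS 3 (0.56, limma adjusted p = 0.0834) and without DT 1 (0.55, limma adjusted p = 0.0933). Csta1, a cysteine protease inhibitor of the stefin family, had 0.30 (limma adjusted p = 0.196) and Wfdc12, of the WAP family, 0.30 (limma adjusted p = 0.242). Without PBS 5, Csta1 (0.37), Wfdc12 (0.36) and Slpi (0.36) passed the threshold, Slpi being named because it did.

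Of 26 other epithelial proteases 24 had values, 0 passed by limma and 2 had an unadjusted p under 0.05, with a median log2 fold change of 0.06. Ctsl, the lysosomal cysteine protease cathepsin L, had 2986 ± 313 normalized counts (SD, n = 5) in PBS-treated and 3512 ± 142 (SD, n = 6) in DT-treated mice (0.24, limma adjusted p = 0.151), and it passed without PBS 5 (0.30, limma adjusted p = 0.0181). Plau, the urokinase plasminogen activator, had a log2 fold change of 0.21 (limma adjusted p = 0.275) and Furin, which cleaves many proproteins, one of -0.09 (limma adjusted p = 0.468). Plau passed without PBS 3 (0.28, limma adjusted p = 0.0806).

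In the corneodesmosome and desmosome list, the substrates of the kallikreins and their partners, 17 of 18 had values, 0 passed by limma and 2 had an unadjusted p under 0.05, and the median log2 fold change was 0.06. Cdsn, which encodes corneodesmosin, had 28573, 28618, 33320.4, 33718 and 35168 normalized counts in PBS 1 to 5 and 34107, 37245 and 39612 as lowest, median and highest after DT. PBS 5 alone was within the DT range (log2 fold change 0.21, standard error 0.07, limma adjusted p = 0.257). The desmosomal cadherins Dsg1b and Dsc1 had log2 fold changes of 0.18 (limma adjusted p = 0.263) and 0.19 (limma adjusted p = 0.436), and both were lowest in PBS 3, as Spink5 was.

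Of 12 targets and receptors of kallikreins 10 had values, 0 passed by limma, 0 had an unadjusted p under 0.05 and the median log2 fold change was -0.11. Flg, which encodes profilaggrin, had 9923 ± 2885 normalized counts (SD, n = 5) in PBS-treated and 7827 ± 1069 (SD, n = 6) in DT-treated mice (-0.31, limma adjusted p = 0.451). Il18, a cytokine of keratinocytes, had a log2 fold change of 0.18 (limma adjusted p = 0.494) and F2r, which encodes a protease-activated receptor, one of -0.19 (limma adjusted p = 0.549). With PBS 3 and PBS 5 left out, 18 of the 72 genes with values in the 5 lists passed, 17 of them higher after DT and 1 (Flg, -0.57) lower, where 10.3% of all genes passed, 4.81% higher and 5.45% lower. Beside Klk9, Klk12 and Flg, the genes named above that passed were Spink7 (0.53), Csta1 (0.44), Slpi (0.44), Wfdc12 (0.43), Ctsl (0.33), Plau (0.32), Il18 (0.32) and Cdsn (0.29). These calls too take no account of how the mice left out were chosen.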

How the data were processed

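Libraries of gingival epithelium from 5 PBS-treated and 6 DT-treated mice were analysed. Per the study's methods, the authors trimmed the reads, aligned them with TopHat, counted them per gene with htseq-count, dropped genes with few counts and divided each library by a DESeq2 size factor. The deposited values are these normalized counts, in a unit of their own. Versions and build differ between the methods (GRCm38) and the submitters' processing notes (GRCm39). Values were whole multiples of 1 read (100% within 0.1), which gave the depth and nothing else.

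Differences were tested with limma 3.58.1 (R 4.3.3, intensity trend) on log2(normalized count + 1), which understates the change of low genes. Benjamini-Hochberg adjustment ran over 19170 genes, with a threshold of 0.1. A simulation with 200 genes changed 2-fold recovered 179, with 29 false calls. Mice with the same number did not deviate together throughout, so the numbers were not used as pairs. Correlations used numpy 2.4.6 and scipy 1.17.1. Positions and lengths are from GENCODE release 21, and promoters, found for 8 of 8 kallikreins, from RefSeq.

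The genes and lists were chosen with earlier results of these data known. Named beside the 9 genes are Cd207, the 3 genes of each list with the smallest p, and the 3 genes most like each of the 9. Exceptions, named after their values were seen, are 2310002F09Rik, Slpi and the largest markers. Alternatives tried were pseudocounts of 0.5 and 8, a filter at a mean of 10, TMM scaling, quantile normalization, array weights, replicate blocks and leaving out mice. The correlations without PBS 3 and PBS 5 or DT 4, and the ratio without length scaling, were added after seeing the data. Protein sequences were not used here.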

Additional observations from a re-analysis of the deposited data

Results flagged for a closer look

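In 52 groups of values, those of the 9 genes, 15 named list genes, Cd207 and 2310002F09Rik in each treatment, a mouse was looked for whose gap to its nearest neighbour exceeds Dixon's 95% critical value, and chance gives about 1 in 20, here 2.6. Klk10 in DT 4 was one such value, at 19276 normalized counts where the other DT-treated mice lay between 14206 and 15316, a gap of 0.781 of the whole range. Klk9 in DT 3 was the other, at 804 normalized counts where the other DT-treated mice lay between 1022 and 1146, a gap of 0.638 of the range.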

How the results depend on the processing

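Over the 20 alternatives the log2 fold changes of Klk5, Klk6, Klk7, Klk8, Klk13, Klk14 and Spink5 stayed above 0 and that of Klk11 below it. Klk10 turned to -0.065 with quantile normalization, and lay between -0.055 and 0.059 when a mouse was left out. Leaving out a mouse gave 0.17 to 0.33 for Klk8, which passed without PBS 5, and 0.10 to 0.20 for Spink5. It gave 0 to 1 of the 9 genes, 0 to 3 inhibitors, 0 to 1 proteases and 27 (without DT 5) to 259 (without PBS 5) of all genes past the threshold. Array weights gave 189 genes in all, 2 inhibitors (Spink7 and Csta1) and 1 protease (Ctsl). Without PBS 3 and PBS 5 together 1967 genes passed, with 5 of the 9 genes (Klk6 0.98, Klk7 0.27, Klk8 0.40, Klk11 -0.16 and Klk14 0.20), 2 other kallikreins, 9 inhibitors, 4 proteases, 1 desmosome gene (Cdsn) and 2 targets. The adjusted p-values of that fit take no account of the choice of these mice by their values. The cause was not tested.

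A replicate block gave 35 genes by the title numbers and 0 by the library numbers, and 0 of the 9 genes either way. The deviations of same-numbered mice correlated between -0.23 and 0.32. Differently numbered mice were not set beside them, so whether the numbers carry a pairing was not settled. Count tests with edgeR and DESeq2 on recovered reads had been planned and were not run. Low counts limit Klk6, which had 23.3 normalized counts in PBS 2.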
